A study of Mus musculus with 12 samples.

Results

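The 10 genes described here encode the glutathione, Nrf2 and ferroptosis defence machinery: Nfe2l2, Gclc, Gclm, Slc7a11, Gpx4, Gsr, Nqo1, Txnrd1, Srxn1 and Acsl4. They were matched by symbol to the 54833 genes in the deposited table, and were chosen with earlier results of these data known. Shares of all genes set beside them are therefore descriptive. Each symbol matched 1 row, and all 10 passed the filter on low counts, as did 21495 genes in all. RNA-seq was available for 12 samples of male wild-type C57BL/6 mice, 3 in each of 4 groups that crossed age (young or aged) with surgery (ICH or sham), where young means 8–10 weeks and aged 20–22 months. Intracerebral hemorrhage (ICH) was induced with type IV collagenase, an enzyme that weakens vessel walls, injected into the striatum, while sham mice received saline. The tissue next to the hematoma, in the caudate putamen on the injected side, was taken 24 h later. The collagenase model bleeds from enzymatically damaged vessels, and each sample pooled tissue from several mice, so that *P* values measure the spread between pools. The samples held 28410896 to 37785160 counts on genes.

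Nrf2, the product of Nfe2l2, is a transcription factor that Keap1 holds in the cytoplasm for destruction, and that enters the nucleus when oxidants or electrophiles modify Keap1. There it pairs with small Maf proteins at antioxidant response elements and drives genes of glutathione synthesis, thioredoxin reduction and quinone and heme breakdown. Slc7a11 imports cystine, Gclc and Gclm form the enzyme that limits glutathione synthesis, and Gpx4 uses glutathione to reduce lipid peroxides in membranes. Ferroptosis is a form of cell death in which iron-dependent lipid peroxidation outruns this defence, and Acsl4, which loads polyunsaturated fatty acids onto lipids, makes cells sensitive to it. Blood in the brain releases heme and iron, which is why these genes are of interest after hemorrhage.

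Because Nrf2 and stress-responsive factors act through short DNA elements, the 250 bases before the transcription start of each gene were taken from RefSeq (GRCm38.p6) and searched on both strands for TGACNNNGC, the core of the antioxidant response element. Of the 10 genes, 8 had windows, 13 in all, and Gclc and Gsr had none. The core was found for 3 of these 8 genes, Nfe2l2, Gclm and Txnrd1, where 11.5% of 27025 genes with a window and 10.2% of 32851 windows held it. It lay 240 to 232 bases before the start of Nfe2l2 on the strand of the gene, and on the opposite strand 134 to 126 bases before that of Gclm and 92 to 84 bases before the second of the starts of Txnrd1. The 3 windows are shown 5′ to 3′ on the strand of the gene, at chr2:75704664-75704913 (minus strand), chr3:122245307-122245556 (plus strand) and chr10:82858956-82859205 (plus strand), with the core in capitals.
Nfe2l2: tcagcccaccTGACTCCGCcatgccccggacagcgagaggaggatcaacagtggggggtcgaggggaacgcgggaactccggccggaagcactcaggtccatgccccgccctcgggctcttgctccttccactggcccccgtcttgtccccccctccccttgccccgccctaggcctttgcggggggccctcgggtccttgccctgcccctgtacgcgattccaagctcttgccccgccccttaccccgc
Gclm: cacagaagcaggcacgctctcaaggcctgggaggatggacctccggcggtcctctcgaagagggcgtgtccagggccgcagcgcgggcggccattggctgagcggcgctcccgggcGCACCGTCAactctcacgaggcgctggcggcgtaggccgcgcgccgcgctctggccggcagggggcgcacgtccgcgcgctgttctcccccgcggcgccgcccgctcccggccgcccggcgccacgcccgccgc
Txnrd1: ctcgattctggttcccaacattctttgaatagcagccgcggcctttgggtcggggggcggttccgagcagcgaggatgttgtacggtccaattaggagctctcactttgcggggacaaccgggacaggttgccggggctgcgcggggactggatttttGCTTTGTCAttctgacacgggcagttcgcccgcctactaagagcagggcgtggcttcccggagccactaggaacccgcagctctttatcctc

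A further pair of motifs was searched after the sequences had been seen. TGAGTCA, a heptamer bound by AP-1 and shared by many antioxidant response elements, occurred in the window of Srxn1 at 102 to 96 and at 45 to 39 bases before the start, and 5.16% of genes with a window held it. TGATGCAA, an element bound by Atf4 together with C/EBP factors, occurred in the window of Slc7a11 at 66 to 59 bases before the start and, on the opposite strand, at 47 to 40 bases, and 0.918% of genes held it. A match only describes the letters in the window and does not show that a factor bound there. These windows, at chr2:152105274-152105523 (plus strand) and chr3:50443614-50443863 (minus strand), are shown likewise.
Srxn1: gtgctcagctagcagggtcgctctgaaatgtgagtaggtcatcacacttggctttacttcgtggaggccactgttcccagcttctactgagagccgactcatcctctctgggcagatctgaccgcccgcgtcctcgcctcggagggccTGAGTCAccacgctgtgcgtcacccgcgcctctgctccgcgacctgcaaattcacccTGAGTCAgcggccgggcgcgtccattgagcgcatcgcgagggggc
Slc7a11: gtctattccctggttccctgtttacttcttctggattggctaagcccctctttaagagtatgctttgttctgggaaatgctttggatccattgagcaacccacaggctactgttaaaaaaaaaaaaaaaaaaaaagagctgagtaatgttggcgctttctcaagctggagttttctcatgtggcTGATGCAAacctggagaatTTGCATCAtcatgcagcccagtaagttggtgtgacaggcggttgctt

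Per length of transcript, Gpx4 was the most abundant of the 10 in every group. In young sham mice, its mean FPKM (deposited fragment counts per transcript length and sample total) was 56.1 ± 2.79 (SD, n = 3), followed by 33.2 ± 0.937 for Srxn1, the sulfiredoxin that repairs overoxidized peroxiredoxins. Acsl4 (19.6) and Gclc (17.7) came next, then Gsr (11.8), the reductase that regenerates glutathione, and Gclm (10.3), whose ranges overlapped. Below them were Txnrd1 (9.25), the cytosolic thioredoxin reductase, Nfe2l2 (4.70), Slc7a11 (3.80) and, lowest, Nqo1 (2.15), a quinone reductase. In young sham mice no other neighbours in this order overlapped. In aged ICH mice, the order of mean FPKM was Gpx4 (71.1), Srxn1 (39.9), Gclc (18.9), Acsl4 (17.9), Gsr (17.5), Txnrd1 (14.97), Gclm (11.8), Nfe2l2 (10.5), Slc7a11 (6.26) and Nqo1 (3.03), with overlap between Gclc and Acsl4 and between Acsl4 and Gsr. Txnrd1 thus stood below Gclm in both sham groups and above it in both ICH groups, although in young ICH and in aged sham mice the ranges of the pair overlapped.

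Some libraries stood apart. The third aged sham sample held more monocyte, macrophage and neutrophil RNA than the other sham samples. The summed level of 8 monocyte and macrophage markers, among them Ccr2 and Lyz2, was 77.6 CPM (the count of a gene scaled to the TMM-normalized library size) in that sample, 26.7 to 46.3 CPM in the other 5 sham samples, 76.4 to 127.2 CPM in young ICH and 110.1 to 130.9 CPM in aged ICH. The summed level of 9 neutrophil markers ranged from 1.93 to 3.24 CPM in young sham, from 9.34 to 21.0 CPM in young ICH, from 4.47 to 12.1 CPM in aged sham and from 22.6 to 33.2 CPM in aged ICH, with Ly6g and Camp near 0 in each of the 12 samples. Choroid plexus markers, which should be scarce in this tissue, summed to more than 1000 CPM in 3 libraries, with 4040 CPM in the third young ICH sample and 1545 and 1959 CPM in the first and second aged ICH samples. In edgeR 0 of the 5 choroid plexus markers were called at either age, with median log2FC of 2.06 in young and 3.40 in aged mice, while 0 and 3 had an unadjusted *P* under 0.05 and DESeq2 called 0 and 1. The 8 markers of striatal projection neurons were present in all samples, at sums from 1642 to 2821 CPM in young sham, 478 to 1603 CPM in young ICH, 1402 to 2433 CPM in aged sham and 309 to 1764 CPM in aged ICH. Their median log2FC was −0.95 in young and −1.11 in aged mice, where edgeR and DESeq2 called 0 of 8 and 1 of 8 had an unadjusted *P* under 0.05 at each age. Markers of neurons summed to 4633 to 8004 CPM. Red blood cell markers summed to 5.33 to 22.4 CPM in young sham, 29.0 to 121.0 CPM in young ICH, 28.0 to 39.6 CPM in aged sham and 24.4 to 83.0 CPM in aged ICH. Of the 5 tested, edgeR called 3 higher in young mice (median log2FC 2.39) and 0 in aged mice (median 0.17), where 1 had an unadjusted *P* under 0.05 and DESeq2 called 0. The part of these cells in the results was not tested. In bulk tissue, fewer cells of a type and less RNA per cell cannot be told apart.

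Comparison of young ICH vs. young sham addressed the response of the defence genes to hemorrhage in young mice. The levels of Nfe2l2, Txnrd1 and Gpx4 were higher after ICH, and no gene of the 10 was called lower. The 3 called higher (edgeR quasi-likelihood test, adjusted *P* < 0.05) compare with 9.89% of all genes tested called higher and 9.23% called lower. By the criterion of the study, FC > 1.5 or FC < 0.67 with unadjusted *P* < 0.05, 1 of the 10 was upregulated, Nfe2l2, where 8.66% of all genes were. All young ICH samples lay above all young sham samples for 7 of the 10 genes (18.5% of all genes) and below them for 2, Gclc and Acsl4 (16.5%). The median log2FC of the 10 was 0.24, and that of all genes tested 0.02.

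The transcription factor itself changed most of the 10. Nfe2l2 was at 20.2, 17.5 and 18.1 CPM in the 3 young sham samples and at 30.7, 31.4 and 46.4 CPM in the 3 young ICH samples. The groups did not overlap, and the third young ICH sample stood above the other two. The log2FC was 0.95 ± 0.18 (SE), an FC of 1.94 with a 95% interval from 1.49 to 2.53 (edgeR adjusted *P* = 0.00456). Without the third young ICH sample, which was the one richest in choroid plexus markers, the log2FC was 0.73 and the gene was still called (edgeR adjusted *P* = 0.0139).

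Txnrd1, whose product keeps thioredoxin reduced, had the smallest *P* of the 10. Its level was 70.9, 67.1 and 67.4 CPM in young sham and 97.6, 87.5 and 100.7 CPM in young ICH. The ICH samples were all well above the sham samples, which lay within a narrow range. The log2FC was 0.48 ± 0.07 (edgeR adjusted *P* = 0.00229), or an FC of 1.39, under the 1.5 of the study's criterion. Gpx4, the lipid peroxide reductase, was at 102.4, 96.0 and 104.8 CPM in young sham and at 122.1, 112.5 and 130.2 CPM in young ICH. These groups too did not overlap, but the change was small, with an FC of 1.20 (95% interval 1.10 to 1.32) and a log2FC of 0.27 ± 0.06 (edgeR adjusted *P* = 0.012). The call of Gpx4 was lost when the second young sham sample was left out (edgeR adjusted *P* = 0.0601) and when the 3 libraries over 1000 CPM of choroid plexus markers were left out (log2FC 0.21, edgeR adjusted *P* = 0.0798).

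The cystine and glutathione genes of the young mice stayed short of the threshold. Slc7a11 was at 53.1, 63.3 and 49.4 CPM in young sham and at 63.3, 84.2 and 96.9 CPM in young ICH. The lowest ICH sample was level with the highest sham sample to within 0.1 CPM, and the log2FC of 0.56 ± 0.18 came with an edgeR adjusted *P* of 0.0516. DESeq2 called it (adjusted *P* = 0.0193), as did edgeR with no filter on low counts (adjusted *P* = 0.0216). Gclm is the regulatory subunit of the synthesis enzyme and Gclc the catalytic subunit, and their log2FC were 0.16 ± 0.06 and −0.11 ± 0.06 (edgeR adjusted *P* = 0.0678 and 0.235). Gclm was at 64.3 to 71.8 CPM in young sham and 72.9 to 76.9 CPM in young ICH, while Gclc was at 68.4 to 71.1 CPM and 64.0 to 65.0 CPM. Neither pair of groups overlapped. The ratio of Gclm to Gclc in FPKM, calculated after these values had been seen, was 0.604, 0.563 and 0.575 in young sham and 0.676, 0.719 and 0.703 in young ICH, with no overlap. In the aged mice, the ratio was 0.600, 0.550 and 0.612 in sham and 0.679, 0.567 and 0.630 in ICH, and these groups overlapped. An exact permutation test of the ratio gave *P* = 0.1 in young and 0.4 in aged mice, where 0.1 is the smallest possible value with 3 samples per group. Since Gclm was higher and Gclc lower in every young ICH sample, the young ratio had to separate. Its *P* in this permutation test was thus fixed in advance, and the values of 0.1 and 0.4 do not compare the ages.

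Of the remaining genes, Srxn1 and Gsr had log2FC of 0.26 ± 0.09 and 0.21 ± 0.08, neither of which was called (edgeR adjusted *P* = 0.0645 and 0.0991). Nqo1 was low throughout, at 2.77 to 4.06 CPM in young sham and 3.22 to 4.98 CPM in young ICH, and its log2FC of 0.16 had a 95% interval from −0.37 to 0.69. The data are therefore compatible with any change of Nqo1 within that interval. Acsl4, the gene of the 10 that promotes ferroptosis, was at 105.8, 120.0 and 105.7 CPM in young sham and at 98.2, 104.4 and 81.2 CPM in young ICH. All of its ICH samples lay below all sham samples, by a log2FC of −0.22 ± 0.10 that did not pass the test (edgeR adjusted *P* = 0.125).

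**Figure D1:**
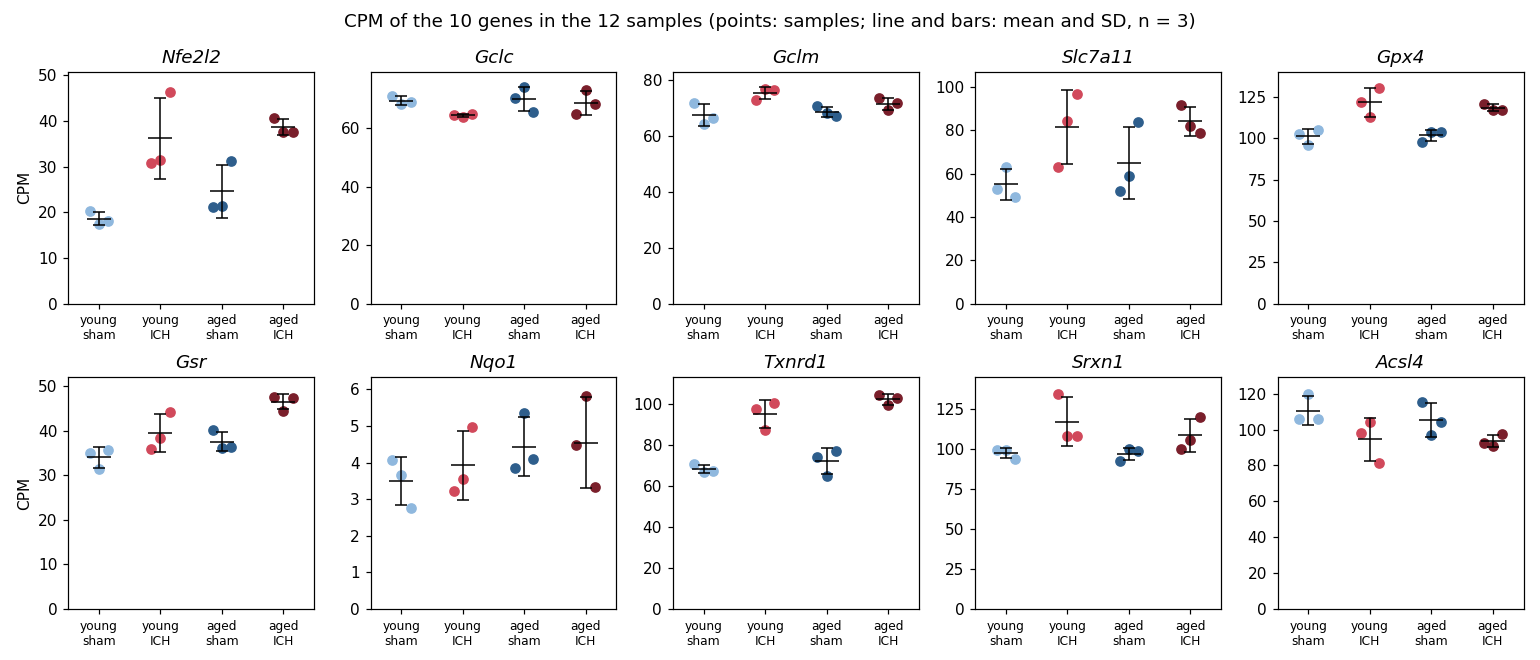
Level in CPM of the 10 genes in each of the 12 samples, by group, with the mean as a line and the SD as bars (n = 3); every axis starts at 0. Nfe2l2, Txnrd1, Gpx4, Gsr and Srxn1 lie higher in ICH than in sham at both ages without overlap. Nqo1 overlaps throughout, and the third aged sham sample lies at 31.3 CPM for Nfe2l2 and 83.8 CPM for Slc7a11.

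Comparison of aged ICH vs. aged sham asked the same of aged mice. Nfe2l2, Txnrd1, Gpx4 and Gsr were called higher and none lower, 4 of 10 against 7% of all genes called higher and 6.15% called lower. By the criterion of the study, Nfe2l2 alone was upregulated, where 7.24% of all genes were. All aged ICH samples lay above all aged sham samples for 5 genes, the 4 called and Srxn1, where 17.8% of all genes did so, and for none of the 10 did they all lie below (17.3%). The median log2FC was 0.19, and that of all genes 0.00.

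Nfe2l2 was at 21.1, 21.3 and 31.3 CPM in the 3 aged sham samples and at 40.6, 37.6 and 37.5 CPM in the 3 aged ICH samples. The third aged sham sample, which was the one with the most monocyte and macrophage RNA, lay as high as the lower young ICH samples. The log2FC was 0.65 ± 0.17, an FC of 1.57 with a 95% interval from 1.20 to 2.04 (edgeR adjusted *P* = 0.032). Without that sham sample the log2FC was 0.86 (edgeR adjusted *P* = 0.0124), but the call was lost without the first aged ICH sample (0.112), the third aged ICH sample (0.0741), the first aged sham sample (0.121) or the second (0.116), as edgeR adjusted *P* values.

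Txnrd1 was at 74.3, 65.1 and 77.4 CPM in aged sham and at 104.5, 99.6 and 103.1 CPM in aged ICH. Its log2FC of 0.50 ± 0.07 (edgeR adjusted *P* = 0.00439) kept its call whichever single sample was left out, with adjusted *P* values up to 0.0255. It was also still called without the 3 libraries rich in choroid plexus markers, at an edgeR adjusted *P* of 0.0187 in young and 0.0466 in aged mice, where 1 aged ICH sample was left and was assumed to vary like the other groups. With them left out, Txnrd1 was the only one of the 10 called in aged mice, and Txnrd1 and Nfe2l2 were those called in young mice. The log2FC of the calls lost in aged mice were 0.62 for Nfe2l2, 0.34 for Gsr and 0.21 for Gpx4, where they were 0.65, 0.31 and 0.22 with all 12 samples.

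Gpx4 was at 98.0, 103.4 and 103.7 CPM in aged sham and at 120.7, 117.3 and 116.9 CPM in aged ICH. The change, a log2FC of 0.22 ± 0.06 (edgeR adjusted *P* = 0.0378), was small and its samples were close together. Gsr was at 40.0, 36.2 and 36.4 CPM in aged sham and at 47.6, 44.5 and 47.3 CPM in aged ICH, with a log2FC of 0.31 ± 0.08 (edgeR adjusted *P* = 0.0346). The groups did not overlap for either gene. Nevertheless the call of Gsr was lost without the first or the third aged ICH sample or any one of the aged sham samples (edgeR adjusted *P* from 0.0548 to 0.123). The call of Gpx4 was lost when any one sample of either aged group or the first young sham sample was left out (edgeR adjusted *P* from 0.0506 to 0.135).

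Slc7a11 was at 52.0, 59.2 and 83.8 CPM in aged sham and at 91.6, 82.1 and 78.9 CPM in aged ICH. The third aged sham sample lay within the range of the ICH samples, and the log2FC of 0.37 ± 0.18 was not called (edgeR adjusted *P* = 0.201). Without that sample it was 0.60 (edgeR adjusted *P* = 0.0456). Srxn1 was higher in each ICH sample, at 100.4 to 120.3 CPM against 92.8 to 99.9 CPM, by a log2FC of 0.16 ± 0.09 (edgeR adjusted *P* = 0.267). For Gclm, Gclc, Nqo1 and Acsl4 the aged groups overlapped, with log2FC of 0.06, −0.03, 0.04 and −0.17 in that order.

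**Figure D2:**
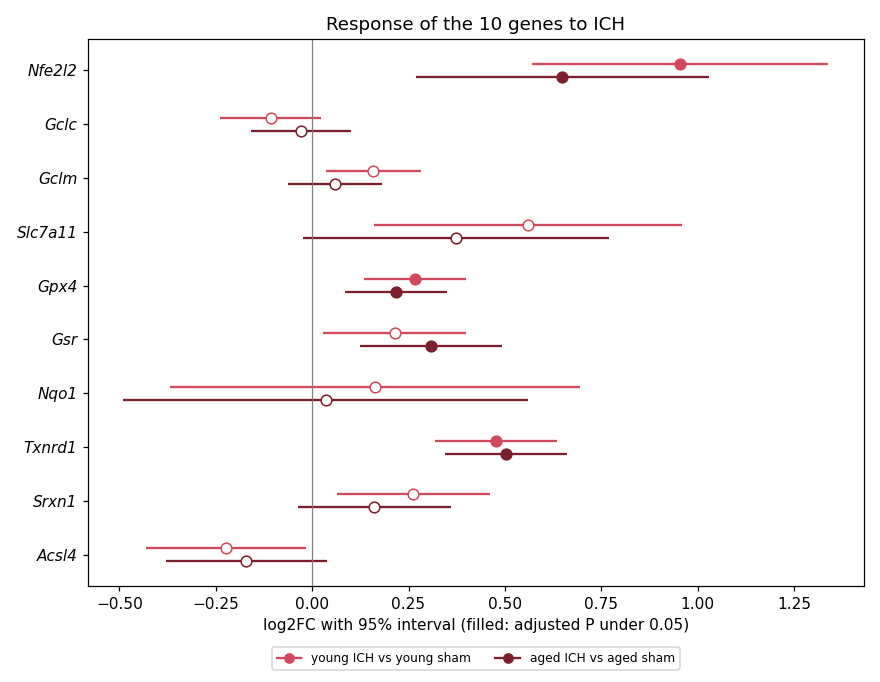
The log2FC of the 10 genes in young ICH vs. young sham and in aged ICH vs. aged sham, with 95% intervals; filled points have an edgeR adjusted *P* under 0.05. Nfe2l2, at 0.95 and 0.65, and Txnrd1, at 0.48 and 0.50, have the largest called values, and Acsl4 and Gclc lie below 0 at both ages.

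A balance between the gene that reduces lipid peroxides and the one that supplies their substrate was described by the ratio of Gpx4 to Acsl4 in FPKM within each sample, also calculated after the values had been seen. The ratio was 3.03, 2.51 and 3.11 in young sham and 3.90, 3.38 and 5.02 in young ICH. In aged mice, it was 2.67, 3.35 and 3.12 in sham and 4.09, 4.05 and 3.76 in ICH. At both ages every ICH sample was above every sham sample of that age. An exact permutation test gave *P* = 0.1 at both ages, the smallest value it can give with 3 samples per group. In young mice Gpx4 was higher and Acsl4 lower in every ICH sample, so that this outcome was fixed in advance. In aged mice Gpx4 alone already separated the groups. The test therefore adds no support to the values of the genes themselves. How many pairs of genes separate in this way was not computed. Acsl4 itself was not called at either age (edgeR adjusted *P* = 0.125 and 0.263), and its aged groups overlapped.

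Age itself was compared among sham and among ICH samples. In aged sham vs. young sham, 0 of the 10 genes were called (0.102% of all genes were), and 1, Nfe2l2, had an unadjusted *P* under 0.05 (12.3% of all genes), with DESeq2 also calling 0. Nfe2l2 was higher in each of the 3 aged sham samples than in the young ones, with a log2FC of 0.40 ± 0.18 (edgeR adjusted *P* = 0.387), which was 0.19 without the third aged sham sample. Aged and young sham samples did not overlap for Nfe2l2 and Gsr, where 9.81% of all genes were higher without overlap. For Gpx4 the log2FC was 0.01, with a 95% interval from −0.12 to 0.14.

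In aged ICH vs. young ICH, again 0 of the 10 were called (0.0558% of all genes) and 1 had an unadjusted *P* under 0.05 (9.54% of all genes), with DESeq2 calling 0. This was Gsr, at 35.8, 38.3 and 44.1 CPM in young ICH and 47.6, 44.5 and 47.3 CPM in aged ICH. All aged samples were higher (6.9% of all genes), though by less than 1 CPM at the nearest, and the log2FC was 0.24 ± 0.08 (edgeR adjusted *P* = 0.415).

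The interaction, the log2FC of ICH in aged mice minus that in young mice, tested whether the responses differed with age. It was called for 0 of the 10 genes and for 0% of all genes tested by edgeR, and 0 of the 10 and 2.82% of all genes had an unadjusted *P* under 0.05. DESeq2 called 0 of the 10. The difference was −0.31 for Nfe2l2 with a 95% interval from −0.84 to 0.23, −0.19 for Slc7a11 (−0.75 to 0.37), −0.05 for Gpx4 (−0.24 to 0.14), 0.03 for Txnrd1 (−0.20 to 0.25) and 0.09 for Gsr (−0.17 to 0.36). These intervals do not show that the responses were alike. That Gsr was called in aged and not in young mice is not a difference between the ages by this test. The interaction and the age comparisons share samples with the comparisons of ICH with sham and are not independent of them. Without the third aged sham sample, the difference was −0.09 for Nfe2l2 and 0.04 for Slc7a11.

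**Figure D3:**
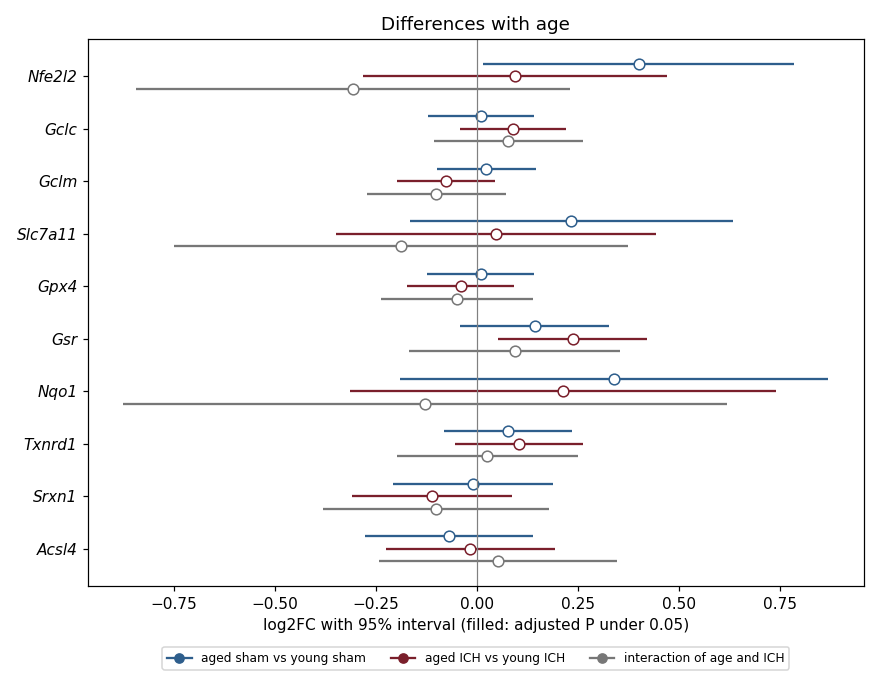
The log2FC of the 10 genes in aged sham vs. young sham and in aged ICH vs. young ICH, followed by the interaction of both factors, with 95% intervals; no point is filled, since no edgeR adjusted *P* was under 0.05. The intervals of Nqo1, Slc7a11 and Nfe2l2 are the widest and those of Gclm and Gclc the narrowest.

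The other genes of these pathways were described from 9 lists of 173 genes in all, of which 168 could be tested. The lists were chosen with earlier results of these data known, so that their shares beside those of all genes are descriptive and not a test. In young ICH vs. young sham, 47 were called higher and 9 lower, or 33.3% in either direction, where 19.1% of all genes tested were called in either direction. In aged ICH vs. aged sham, 34 were higher and 10 lower, or 26.2%, where 13.2% of all genes were called. The median log2FC of the 168 genes was 0.13 in young and 0.06 in aged mice. All 35 genes called at both ages changed in the same direction. In aged sham vs. young sham, edgeR called 0 of the 168, where 28 had an unadjusted *P* under 0.05, DESeq2 called 4, and 7 passed the criterion of the study. In aged ICH vs. young ICH these numbers were 0, 25, 2 and 1, and in the interaction 0, 8, 0 and 1. Over all 21495 genes tested, 12.3%, 9.54% and 2.82% had an unadjusted edgeR *P* under 0.05 in these 3 comparisons. The criterion of the study took 606 genes higher and 193 lower in the first and 476 and 280 in the second. In the interaction it took 104 and 232. DESeq2 called 143 higher and 137 lower in the first and 86 and 103 in the second. Of all genes tested, 9.89% were called higher and 9.23% lower in young ICH vs. young sham, and 7% and 6.15% in aged ICH vs. aged sham. These shares are the background for each list below. Without the second young sham sample, the 2125 of all genes called higher in young mice became 965. Without the first aged ICH sample, the 1505 in aged mice became 409. The counts of the 168 listed genes after ICH likewise depended on single samples. Leaving out 1 sample, the genes called higher numbered 31 to 51 in young mice, the lowest without the second young sham sample, and 16 to 35 in aged mice, the lowest without the first aged ICH sample, when 2 were lower. Without the 3 libraries rich in choroid plexus markers, 34 were higher and 8 lower in young mice, and 12 higher and 3 lower in aged mice.

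Among 10 genes that control Nrf2, 3 were higher and 1 lower in young mice, and 3 higher and 2 lower in aged mice. Maff, a small Maf partner of Nrf2, was at 2.04 to 2.54 CPM in young sham and 6.46 to 7.34 CPM in young ICH, with a log2FC of 1.63 ± 0.16 (edgeR adjusted *P* = 0.000546), and of 1.70 ± 0.15 in aged mice (edgeR adjusted *P* = 0.000744). Mafk, another small Maf, rose by 0.99 and 0.76 on the log2 scale in young and aged mice, and Bach1, a repressor that competes with Nrf2 at the same elements and is released by heme, by 0.56 and 0.49. Cul3, the ubiquitin ligase scaffold that works with Keap1, fell by 0.29 and 0.23. The aged calls of Cul3 and Bach1 were each lost in 2 of the 12 fits that left out 1 sample. Their edgeR adjusted *P* in these fits reached 0.0691 and 0.0641. Across such fits the genes of this list called lower numbered 1 or 2 in young mice and 0 to 2 in aged mice. Keap1 itself was not called, with log2FC of 0.13 (edgeR adjusted *P* = 0.139) and 0.04 (edgeR adjusted *P* = 0.738). With 1 sample left out, 3 or 4 genes of this list were higher in young mice and 2 or 3 in aged mice, and without the 3 libraries rich in choroid plexus markers 3 and 1.

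Of 24 other Nrf2 targets, 21 could be tested, of which 6 were higher and 0 lower in young mice, and 5 higher and 1 lower in aged mice. Hmox1, the enzyme that opens heme, had the largest change. It was at 7.32, 16.2 and 14.9 CPM in young sham and at 145.9, 172.8 and 219.4 CPM in young ICH. In aged mice it was at 39.6, 6.51 and 84.8 CPM in sham and at 263.9, 158.9 and 272.9 CPM in ICH. The groups did not overlap at either age, but the 3 aged sham samples lay far apart, and the highest was again the third. The log2FC of Hmox1 was 3.81 ± 0.68 in young mice (edgeR adjusted *P* = 0.00403) and 2.41 ± 0.63 in aged mice (edgeR adjusted *P* = 0.0285), and the interaction, −1.41 with a 95% interval from −3.30 to 0.49, was not called. Osgin1, an oxidative stress growth inhibitor, rose by 1.43 and 1.24, Pgd, of the pentose phosphate pathway that supplies NADPH, by 0.46 and 0.48, and Ugdh, a UDP-glucose dehydrogenase, by 0.48 and 0.36 on the log2 scale. The aged call of Ugdh was lost in 2 of the 12 fits that left out 1 sample (edgeR adjusted *P* up to 0.0706). Gstp1, a glutathione S-transferase, fell by 0.35 in aged mice (edgeR adjusted *P* = 0.00559) and had a log2FC of −0.14 in young mice (edgeR adjusted *P* = 0.122). The aged call of Hmox1 was lost without the first or the third aged ICH sample or the first aged sham sample (edgeR adjusted *P* up to 0.1). Without the 3 libraries rich in choroid plexus markers, which left 1 aged ICH sample, the aged log2FC of Hmox1 was 2.65. Those of Osgin1, Pgd and Ugdh were 1.08, 0.49 and 0.30. Leaving out single samples gave 5 or 6 genes higher in young mice and 2 to 5 in aged mice, the lowest without the first aged ICH sample, and leaving out the 3 libraries rich in choroid plexus markers gave 5 and 1.

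Of 17 genes for cystine uptake and for the synthesis and breakdown of glutathione, 6 were higher and 2 lower in young mice, and 4 higher and 1 lower in aged mice. Slc3a2, the heavy chain that carries Slc7a11 to the membrane, was at 102.3 to 115.7 CPM in young sham and 141.1 to 150.5 CPM in young ICH, and rose by 0.44 in young and 0.48 in aged mice on the log2 scale. Slc1a5, a neutral amino acid carrier that also takes up glutamine, rose by 0.98 and 0.80, and Cndp2, a dipeptidase that splits cysteinylglycine, by 0.36 and 0.38. Lap3, an aminopeptidase, rose by 0.44 in young mice and had a log2FC of 0.20 in aged mice (edgeR adjusted *P* = 0.101). With 1 sample left out the genes higher numbered 5 to 7 in young and 3 or 4 in aged mice, and without the 3 libraries rich in choroid plexus markers 6 and 2.

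Of 21 enzymes that use glutathione, 3 were higher in young mice and 1 in aged mice, with 0 lower. Of all genes tested, 9.89% and 7% were called higher, so that 3 and 1 of 21 lay near the share of all genes. Leaving out single samples gave 1 to 7 in young mice, the lowest without the third young ICH sample or the second or the third young sham sample, and 0 to 3 in aged mice, the lowest without the first aged ICH sample. Gpx1, the cytosolic glutathione peroxidase, was called at both ages, with log2FC of 0.50 ± 0.09 (edgeR adjusted *P* = 0.00533) and 0.47 ± 0.09 (edgeR adjusted *P* = 0.011), the aged call being lost without the first aged ICH sample. Mgst1, a membrane glutathione S-transferase, was at 7.18, 5.33 and 6.60 CPM in young sham and at 10.2, 9.59 and 23.1 CPM in young ICH. The third young ICH sample, with the most choroid plexus RNA, was far above the other two. The log2FC of Mgst1 was 1.16 (edgeR adjusted *P* = 0.0278), and without that sample 0.63, when it was not called (edgeR adjusted *P* = 0.0952). That of Gstt2 was 0.67 in young mice (edgeR adjusted *P* = 0.044), a call lost in 8 of 12 fits that left out 1 sample. In aged mice their log2FC were 0.58 (edgeR adjusted *P* = 0.255) and 0.44 (edgeR adjusted *P* = 0.184).

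Of 22 genes of the thioredoxin and peroxiredoxin system, 8 were higher in young and 5 in aged mice, and 0 lower. With 1 sample left out the genes higher numbered 6 to 8 in young mice and 2 to 5 in aged mice, with 2 when any aged ICH sample or the first or the third aged sham sample was missing. Without the 3 libraries rich in choroid plexus markers they numbered 7 and 1. Txn1, the thioredoxin that Txnrd1 reduces, was at 30.4 to 35.6 CPM in young sham and 39.9 to 45.4 CPM in young ICH, and rose by 0.41 and 0.47 on the log2 scale in young and aged mice. Txnip, which binds and inhibits thioredoxin, rose by 1.18 and 0.60, and Prdx6, a peroxiredoxin that acts on phospholipid peroxides, by 0.46 and 0.26. Prdx1, a cytosolic peroxiredoxin that Srxn1 can repair, rose by 0.44 in young mice and by 0.26 in aged mice. In aged mice the calls of Prdx1, Prdx6 and Txnip were lost in 10, 9 and 5 of the 12 fits that left out 1 sample, with edgeR adjusted *P* up to 0.173, 0.143 and 0.0882.

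Among 25 selenoproteins and genes of selenium supply, the family to which Gpx4 and Txnrd1 belong, 6 were higher and 1 lower in young mice, and 3 higher and 2 lower in aged mice. In aged mice these counts of 25 lay near the shares of all genes tested, 7% higher and 6.15% lower. With 1 sample left out the genes higher numbered 3 to 8 in young mice, with 3 without the second young sham sample, and 0 to 4 in aged mice, with 0 without the first aged ICH sample. Without the 3 libraries rich in choroid plexus markers they numbered 3 and 0. Selenon, a selenoprotein of the endoplasmic reticulum, rose by 0.46 and 0.34, while Selenoi, which takes part in the synthesis of phosphatidylethanolamine, fell by 0.46 and 0.47. The aged calls of Selenon and Selenoi were lost in 1 and 3 of the 12 fits that left out 1 sample. Their edgeR adjusted *P* in these fits reached 0.0524 and 0.0622. Txnrd3 rose by 0.77 in young mice and had a log2FC of 0.20 in aged mice (edgeR adjusted *P* = 0.435).

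Genes that promote ferroptosis and genes that oppose it outside the 10 were called in both directions. Of 22 promoting genes tested out of 23, 5 were higher and 2 lower in young mice (median log2FC 0.17), and 4 higher and 1 lower in aged mice (median −0.04). Sat1, an enzyme of polyamine breakdown, rose by 0.79 and 0.78 on the log2 scale, Slc39a14, which imports zinc and iron, by 0.91 and 0.90, and Alox5, a lipoxygenase of leukocytes, by 0.89 and 1.19. The call of Alox5 was lost in 2 young and 1 aged of the 12 fits that left out 1 sample. Its edgeR adjusted *P* in these fits reached 0.1 and 0.0553. Tfrc, the transferrin receptor, fell by 0.50 in young mice and had a log2FC of −0.23 in aged mice (edgeR adjusted *P* = 0.171). Of 20 opposing genes tested out of 21, 5 were higher and 2 lower in young mice (median 0.05), and 4 higher and 3 lower in aged mice (median −0.07). Of all genes tested, 9.23% were called lower in young and 6.15% in aged mice. The counts lower of both lists lay near these shares, apart from the 3 opposing genes in aged mice. Hspb1, a small heat shock protein, was at 3.20 to 4.36 CPM in young sham and 13.01 to 25.0 CPM in young ICH, and rose by 2.44 and 2.68 on the log2 scale. Ftl1, the ferritin light chain that stores iron, rose by 1.01 and 0.72, and Gch1, the first enzyme of tetrahydrobiopterin synthesis, by 1.54 and 1.09. Vkorc1l1, a vitamin K reductase, fell by 0.31 and 0.26. With 1 sample left out, 2 to 6 promoting genes were higher in young mice, with 2 without the second young sham sample, and 2 to 4 in aged mice, with 2 without the first aged ICH sample. Of the opposing genes 3 to 5 were higher in young mice, with 3 without the third young ICH or second young sham sample, and 3 or 4 in aged mice. The promoting genes lower numbered 1 in 11 of 12 such fits in young mice and 0 in 6 of 12 in aged mice. The opposing genes lower numbered 2 in young mice throughout and 1 to 3 in aged mice. Without the 3 libraries rich in choroid plexus markers, 2 and 2 promoting genes and 3 and 2 opposing genes were higher in young and aged mice.

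Atf4 and its targets, a stress program that also reaches Slc7a11, had 11 of 19 genes higher and 1 lower in young mice, with a median log2FC of 0.33, and 8 higher and 1 lower in aged mice, with a median of 0.27. Atf3, a stress-induced transcription factor, rose by 2.64 and 2.10, and Shmt2, of mitochondrial serine use, by 0.40 and 0.35 on the log2 scale. The aged call of Shmt2 was lost without the first aged ICH sample (edgeR adjusted *P* = 0.0533). Trib3 rose by 1.61 in young mice and had a log2FC of 0.52 in aged mice (edgeR adjusted *P* = 0.168), with an interaction of −1.09 that was not called. With 1 sample left out, 7 to 11 genes of this list were higher in young mice, with 7 without the second young sham sample, and 3 to 8 in aged mice, with 3 without the first aged ICH sample. Without the 3 libraries rich in choroid plexus markers these were 9 and 4. Some genes, such as Slc3a2 and Gpx1, stand in more than 1 list, and ferritin, thioredoxin and peroxiredoxin genes have near-identical copies that could share their reads.

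**Figure D4:**
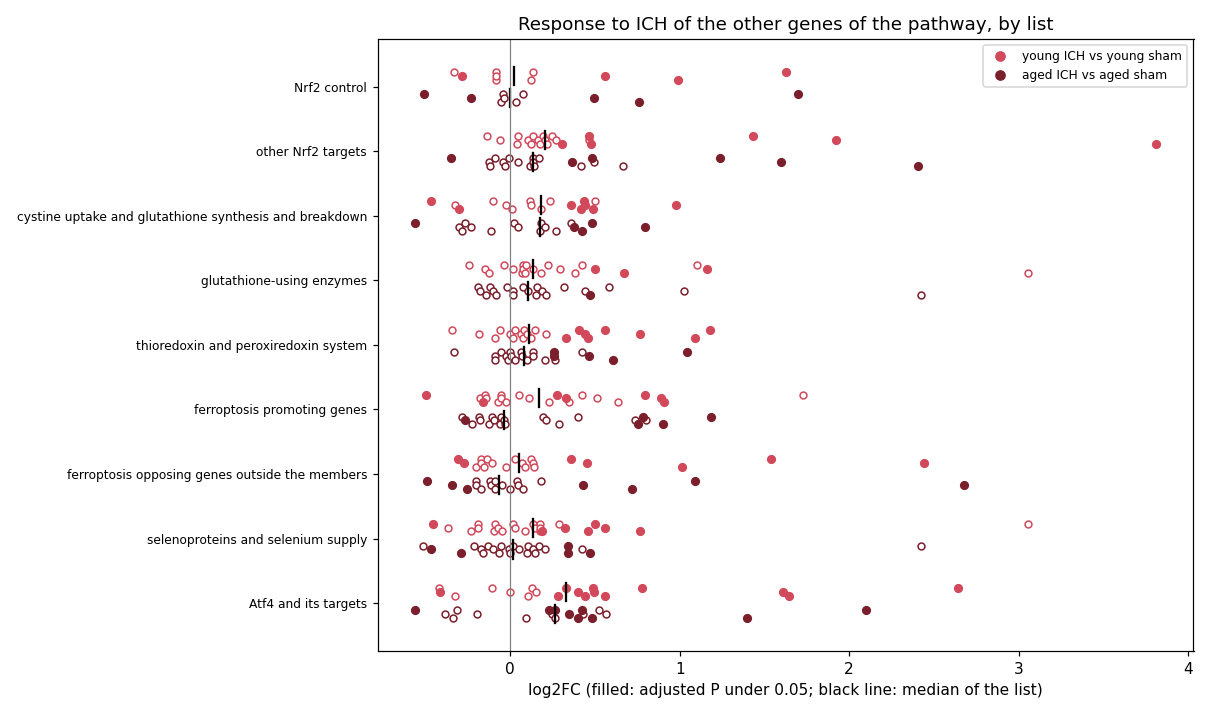
The log2FC after ICH of each tested gene in the 9 pathway lists, in young mice (upper row of each list) and aged mice (lower row); filled points have an edgeR adjusted *P* under 0.05 and black lines mark the list medians. Hmox1, at 3.81 and 2.41, lies far to the right among the other Nrf2 targets, and most genes lie within 1 of 0 on the log2 scale.

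Markers of blood leukocytes were higher in the same samples. Of 8 monocyte and macrophage markers, 4 were called higher in young ICH and 3 in aged ICH, and of 7 neutrophil markers tested, 6 and 5. Endothelial markers were higher for 5 of 6 and 3 of 6, astrocyte markers for 3 of 8 and 2 of 8, with 1 astrocyte marker lower in aged mice. Neuron markers were lower for 3 of 8 and 1 of 8, and oligodendrocyte markers for 0 of 6 and 3 of 6. Of 6 microglia markers, 2 were lower at each age. Over the 12 samples, the summed level of the monocyte and macrophage markers was 76.4 CPM or more in the 6 ICH samples and in the third aged sham sample, the same 7 samples in which Nfe2l2 was at 30.7 CPM or more. The bounds of 76.4 and 30.7 CPM are the lowest values among the ICH samples. Txnrd1 was at 87.5 CPM or more in the 6 ICH samples and at 77.4 CPM in that sham sample. In the same sham sample, Gsr and Srxn1, at 36.4 and 99.0 CPM, lay between the other aged sham samples (36.2 and 40.0, 92.8 and 99.9 CPM). Gpx4 was at 103.7 CPM there, beside 98.0 and 103.4 CPM in the other aged sham samples. The part of leukocyte RNA in the change of the 10 genes was not tested.

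**Figure D5:**
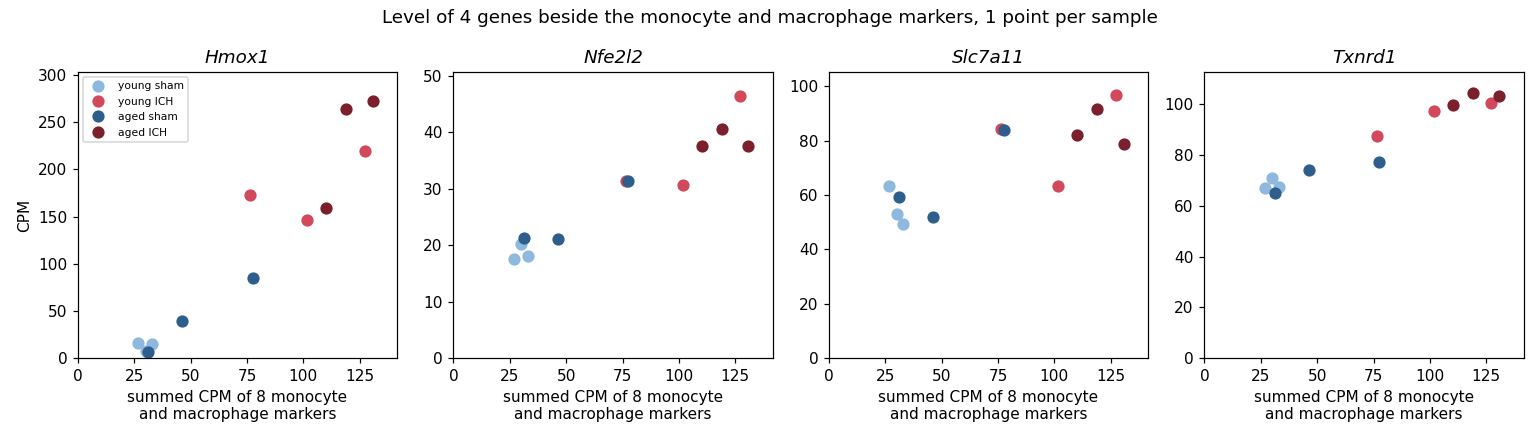
Level in CPM of Hmox1, Nfe2l2, Slc7a11 and Txnrd1 against the summed CPM of 8 monocyte and macrophage markers, with 1 point per sample in the colour of its group. The 6 ICH samples and the third aged sham sample lie at 76.4 CPM or more of the markers, and in that sham sample Nfe2l2 and Slc7a11 are at 31.3 and 83.8 CPM.

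The genes whose profile over the 12 samples was most like that of a called gene were found by the root mean square difference of log2 CPM, each gene centred on its mean. For Nfe2l2 these were Tirap (0.0707), Agpat2 (0.109) and Irak4 (0.117), and for Txnrd1 Rab3il1 (0.0561), Cotl1 (0.0615) and Rps4x (0.0648). For Gpx4 they were Tmed2 (0.0381), Ppp4c (0.0407) and Rps3 (0.0420), and for Gsr Plgrkt (0.0584), Gm37309 (0.0655) and Ccnl1 (0.0683). Smaller values mean closer profiles, and they depend on how much a gene varies, the SD of log2 CPM being 0.49 for Nfe2l2 and 0.14 for Gpx4.

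In GRCm38, the genes lie on separate chromosomes or far apart, for example Nfe2l2 at chr2:75675513-75704641 and Slc7a11 at chr3:49892526-50443614, both on the minus strand, and Gpx4 at chr10:80047166-80056439 and Txnrd1 at chr10:82833951-82897712, both on the plus strand. All 10 are annotated as protein-coding. In the annotation, Gclm shares 4.71% of its exonic bases with Gm17494 on the opposite strand and 3.88% with Gm6061 on its own strand. Its counts are therefore uncertain, and the share of its reads affected was not computed. The other 9 share 0 exonic bases with another gene.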

How the data were processed

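RNA-seq of the 12 samples was analysed as labelled. The authors aligned paired reads to GRCm38.p6 with Hisat2, counted reads with FeatureCounts and deposited raw counts and FPKM per gene and sample, with 0 further columns of samples. Counts are not normalized, and the deposited FPKM are scaled to transcript length and mapped fragments. The strand setting and the treatment of reads with several alignments are not given in the sources used here. Columns of the authors' own fold changes and *P* values in the table were not used.

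Counts were tested with edgeR 4.0.16 (limma 3.58.1, R 4.3.3), by the quasi-likelihood test after TMM normalization, in 1 fit of 4 groups with all 12 samples and the 21495 genes passing filterByExpr with a minimum count of 10. *P* values were adjusted by Benjamini-Hochberg over all genes tested, and an adjusted *P* under 0.05 was a call. SE were obtained from log2FC and the F statistic. The scripts were tested on simulated data. Alternatives were RLE factors, DESeq2 1.42.0, no filter, only the 2 groups compared, a replicate block, limma on log2(FPKM + 1) and log2(FPKM + 0.1), and each sample left out. The 10 genes and all lists were chosen with earlier results of these data known. Named were all 10 genes, Keap1, Bach1, Hmox1 and up to 4 genes per list with the smallest *P* among those called after ICH. Gene positions came from GENCODE vM21 by identifier, and promoters from RefSeq. The depth was 28410896 to 37785160 counts per sample, and intervals reflect the spread between samples. Samples of 1 group correlated at r of 0.977 to 0.991 over log2 CPM, and no 2 were identical.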

Additional observations from a re-analysis of the deposited data

How the results depend on the processing

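Among the comparisons of ICH with sham, Nfe2l2 in young mice and Txnrd1 at both ages kept their adjusted *P* under 0.05 under all other tools, filters and normalizations run and whichever sample was left out. The count of genes called higher in young ICH, 3 of 10, was 7 with limma on log2(FPKM + 1) and 7 on log2(FPKM + 0.1), 1 by FC > 1.5 with unadjusted *P* under 0.05, and 2 to 4 when single samples were left out. The count in aged ICH, 4 of 10, was 1 by FC > 1.5, 1 without the 3 libraries rich in choroid plexus markers (chosen after seeing the data), and 1 to 4 when single samples were left out. It was 1 without aged ICH replicate 1 or 3 or aged sham replicate 1 or 2. The called gene in each of these was Txnrd1, except by FC > 1.5, where it was Nfe2l2. Gpx4 lost its call in young mice when only the 2 groups were fitted (adjusted *P* = 0.059), and in aged mice with no filter (0.0908). Nfe2l2 lost its call in aged mice with limma on FPKM without a filter (0.0547). The cause was not tested.

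In GEO's labels the groups share replicate numbers. Deviations of same-numbered samples from their group means correlated at r from −0.45 to 0.23 in 18 pairs, with 5 over 0.1. The median r was −0.04 for these pairs and 0.01 for pairs of different number. This gave no sign that the numbers pair the samples, but with 3 samples per group it cannot show that they do not. With the replicate block, 3 genes were called higher in young ICH and 4 in aged ICH, and 0 in the other comparisons.

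Of the log2FC of the 10 genes, over the settings other than leaving out 1 sample, 454 kept direction and call, 13 turned sign, 11 gained and 12 lost a call; leaving out 1 sample, the numbers were 541, 36, 6 and 17. No value that turned sign had been called. On the FPKM scale, where the median of all genes lay up to 0.08 higher, these were Gclc in aged ICH vs. aged sham (0.040, 0.042 and 0.040 with pseudocounts of 1 and 0.1 and with no filter), Srxn1 in aged sham vs. young sham (0.031, 0.032 and 0.031) and Acsl4 in aged ICH vs. young ICH (0.014, 0.015 and 0.014). With DESeq2 it was Gpx4 in aged sham vs. young sham (−0.00051). Without the libraries rich in choroid plexus markers it was Nqo1, at −0.046 in young ICH vs. young sham, −0.40 in aged ICH vs. aged sham and −0.022 in aged ICH vs. young ICH.

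Leaving out single samples, the ranges that crossed 0 were −0.046 to 0.29 for Nqo1 in young ICH vs. young sham. In aged ICH vs. aged sham they were −0.075 to 0.012 for Gclc and −0.18 to 0.22 for Nqo1. In aged sham vs. young sham they were −0.030 to 0.056 for Gclc, −0.011 to 0.070 for Gclm, −0.027 to 0.036 for Gpx4 and −0.037 to 0.022 for Srxn1. In aged ICH vs. young ICH they were −0.11 to 0.062 for Acsl4, −0.092 to 0.011 for Gpx4, −0.011 to 0.31 for Nfe2l2, −0.0020 to 0.42 for Nqo1, −0.11 to 0.19 for Slc7a11 and −0.19 to 0.0023 for Srxn1. In the interaction they were −0.046 to 0.13 for Acsl4, −0.098 to 0.0018 for Gpx4, −0.34 to 0.082 for Nqo1, −0.34 to 0.040 for Slc7a11, −0.18 to 0.012 for Srxn1 and −0.043 to 0.079 for Txnrd1.

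Counts over all genes moved by more than 1.5 times in several settings. In young ICH vs. young sham, 2125 higher and 1985 lower became 1326 and 1116 with only the 2 groups, the number lower became 736 to 1078 on FPKM, and without young sham replicate 2 the counts were 965 and 893. In aged ICH vs. aged sham, 1505 higher and 1323 lower became 409 and 270 without aged ICH replicate 1. Without the 3 libraries rich in choroid plexus markers they became 271 and 160, and those in young mice 1101 and 1098. In aged sham vs. young sham, 19 and 3 became 143 and 137 with DESeq2, and in aged ICH vs. young ICH, 8 and 4 became 86 and 103. In the interaction, 0 higher became 1 with DESeq2, and 0 higher and 0 lower became 4 and 4 with limma on FPKM without a filter. By the criterion of the study, which takes the unadjusted *P*, they became 104 and 232. That criterion gave 606 higher and 193 lower in aged sham vs. young sham, and 476 and 280 in aged ICH vs. young ICH.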
